A study of Homo sapiens with 6 samples.

Results

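The circadian clock genes examined here are the period genes PER1, PER2 and PER3, the cryptochrome genes CRY1 and CRY2, the nuclear receptor genes NR1D1 and NR1D2, the helix-loop-helix repressor genes BHLHE40 and BHLHE41, and the output factor gene DBP. Every probe set that the platform annotation pairs with exactly 1 of these symbols was taken, which gave 24 of 49293 non-control probe sets and 9 of the 10 listed genes. NR1D1 has no probe set of its own, because its only probe set is also paired with THRA.

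RNA came from BCPAP, an established cell line of human papillary thyroid cancer. Cells received lentivirus with a short hairpin RNA against CSF2, which encodes the growth factor GM-CSF (shCSF2, n = 3 arrays), or with a hairpin that targets no gene (shCtrl, n = 3 arrays). Both groups went through puromycin selection for 7 days, starting 48 hours after transduction, and the labels call the arrays of each group biological replicates. The labels state neither the number of hairpins per gene nor the time of harvest nor any synchronisation of the cells.

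Values are log2 expression summaries, so that a difference of 1 is a doubling of signal, and array medians lay between 5.77 and 5.79. Across probe sets, which are not independent replicates, arrays correlated with r of 0.998 within groups and 0.994 between groups. CSF2 itself had 0 probe sets, so the knockdown was not checked on its own transcript. Of the thyroid markers, NKX2-1 averaged 9.37 in shCSF2 and 9.78 in shCtrl cells and PAX8 averaged 8.07 in shCSF2 and 8.11 in shCtrl cells, whereas TG, TSHR and SLC5A5 were below the array medians in both groups. FOXE1 averaged 6.15 in shCSF2 and 6.03 in shCtrl cells. KRT8 and KRT18 were above 10 in both groups, and CDH1 and KRT19 were below 4.2. EPCAM averaged 5.64 in shCSF2 and 5.73 in shCtrl cells, just below the array medians. By limma with Benjamini-Hochberg adjustment over all genes and a threshold of 0.05, 2 of the 11 thyroid and epithelial markers measured passed, and both were lower in shCSF2 cells. The log2 fold change was -0.42 for NKX2-1 (limma adjusted p = 0.000315) and -0.26 for KRT8 (limma adjusted p = 0.00518, 8 of 8 probe sets lower). Of 11 leukocyte, endothelial and fibroblast markers, 0 passed that test, beside 32.7% of all genes, and 1 gene, LUM, had an unadjusted limma p under 0.05. Of these markers, CD68, CDH5 and PECAM1 averaged above the array medians in both groups, and the others below them. The RNA quality measure from the GAPDH control probe sets (3′ minus 5′ log2 signal) averaged -0.01 in shCSF2 and -0.03 in shCtrl arrays (exact two-sided permutation p = 0.1, the smallest that 3 against 3 arrays can give), and that from ACTB averaged 0.61 in shCSF2 and 0.59 in shCtrl arrays (exact p = 0.6). The part of the GAPDH difference in the results was not tested.

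The mammalian clock is a transcriptional feedback loop. CLOCK or NPAS2 pairs with BMAL1 and activates genes through E-box elements, among them the PER and CRY genes, whose proteins return to the nucleus and repress that activator. In a connected loop, NR1D1 and NR1D2 repress and the ROR receptors activate BMAL1 through a shared element, and DBP activates while NFIL3 represses through D-box elements. BHLHE40 and BHLHE41 bind E-boxes and repress as well. Most tissues and many cultured lines, thyroid among them, hold such a clock, and unsynchronised cultures average over cells in different phases.

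The start regions of 4 of the genes are shown because they carry the elements through which clock factors are known to act and because each of these genes had at least 1 probe set that passed as higher, as described below. The sequences are from RefSeq on GRCh38.p14 and run 5′ to 3′ on the strand of the gene, from 250 bases before to 50 bases after the annotated start. Capitals mark matches to the motifs searched, which were the E-box CACGTG, its variant CACGTT, the D-box forms TTATGTAA and TTACGTAA, and the core AGGTCA shared by ROR and NR1D receptors, each on both strands.
PER2, chr2:238288561-238288860, minus strand: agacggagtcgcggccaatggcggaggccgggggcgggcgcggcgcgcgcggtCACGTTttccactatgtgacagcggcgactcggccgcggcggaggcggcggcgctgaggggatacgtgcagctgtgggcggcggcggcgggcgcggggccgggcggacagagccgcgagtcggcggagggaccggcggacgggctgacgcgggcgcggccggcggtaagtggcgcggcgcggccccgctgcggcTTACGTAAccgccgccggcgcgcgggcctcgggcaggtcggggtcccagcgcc
PER3, chr1:7784041-7784340, plus strand: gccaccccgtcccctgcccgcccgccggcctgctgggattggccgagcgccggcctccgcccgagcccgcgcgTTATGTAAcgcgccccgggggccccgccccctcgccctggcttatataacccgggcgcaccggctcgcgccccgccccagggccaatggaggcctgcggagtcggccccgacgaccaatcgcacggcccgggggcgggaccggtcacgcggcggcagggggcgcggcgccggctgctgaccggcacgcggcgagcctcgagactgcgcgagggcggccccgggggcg
NR1D2, chr3:23945871-23946170, plus strand: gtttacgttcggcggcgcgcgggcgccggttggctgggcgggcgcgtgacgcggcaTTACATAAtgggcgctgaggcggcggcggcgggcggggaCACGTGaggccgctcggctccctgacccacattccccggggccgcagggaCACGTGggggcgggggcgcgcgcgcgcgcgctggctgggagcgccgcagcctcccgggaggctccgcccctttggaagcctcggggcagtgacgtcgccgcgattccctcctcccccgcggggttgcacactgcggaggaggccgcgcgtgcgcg
BHLHE40, chr3:4979187-4979486, plus strand: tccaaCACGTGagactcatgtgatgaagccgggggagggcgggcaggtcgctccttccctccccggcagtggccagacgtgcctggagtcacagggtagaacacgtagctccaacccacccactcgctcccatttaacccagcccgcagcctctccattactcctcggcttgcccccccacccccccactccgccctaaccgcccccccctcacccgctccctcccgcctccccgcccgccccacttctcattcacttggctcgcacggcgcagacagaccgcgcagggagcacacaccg

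All 9 measured genes were matched to 12 start windows, with 2 windows each for PER3, CRY2 and NR1D2, and the window with the most matches is printed for PER3 and NR1D2. No 2 matches overlapped. A D-box of either form lay in the windows of PER2, PER3 and NR1D2, against 1.01% of 35116 windows of all annotated starts. In PER2 it was TTACGTAA, which begins 3 bases before the start, and in PER3 it was TTATGTAA, which begins 177 bases before it. In NR1D2 it was TTACATAA, which is TTATGTAA read on the other strand, and begins 194 bases before the start. The E-box CACGTG was found in the windows of PER1, NR1D2, BHLHE40 and BHLHE41, against 7.26% of all windows. NR1D2 held it at 2 places, 155 and 105 bases before the start. The variant CACGTT was found in PER2, CRY1 and CRY2, against 5.34% of all windows. AGGTCA was found in PER1 and CRY2, against 13.8% of all windows. The window of DBP held 0 matches. These are matches of letters in genes long known for such elements, and the arrays do not read binding to them.

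**Figure D1:**
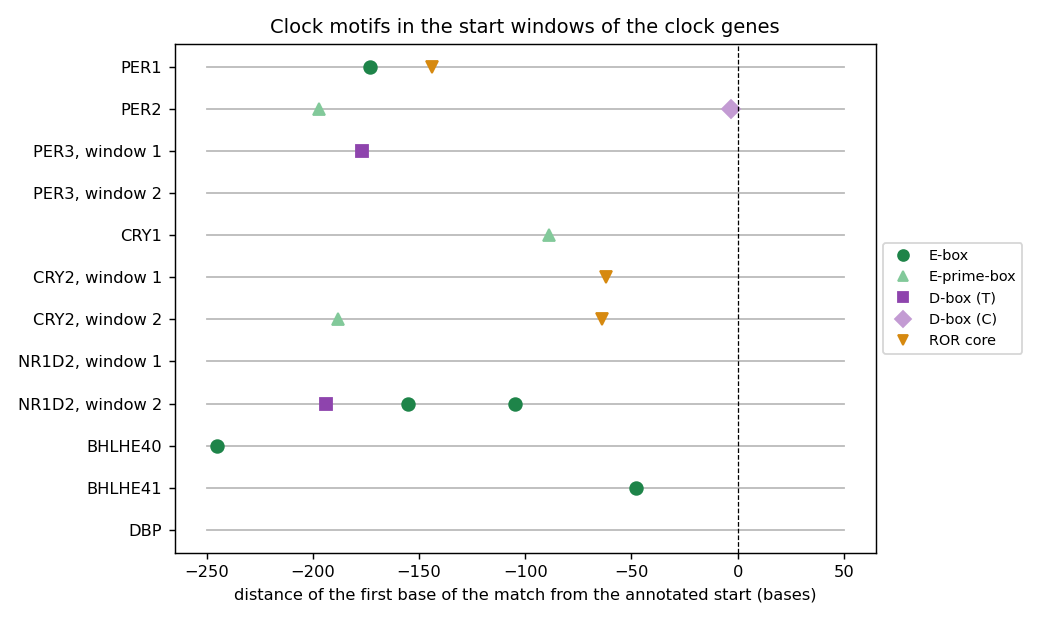
Positions of the 5 motifs in the start windows of the 9 measured clock genes. The horizontal axis is the distance in bases of the first base of a match from the annotated start (dashed line), negative before it, and each grey line is 1 window. D-box matches (squares and diamond) lie in windows of PER2, PER3 and NR1D2, and the window of DBP is empty.

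The study set shCSF2 against shCtrl cells to find transcripts that change when CSF2 is targeted. Each gene was represented by its probe set with the highest mean, and limma was fitted over 18132 genes with a threshold of 0.05 on the adjusted p. By this measure PER3, BHLHE40 and NR1D2 were higher in shCSF2 cells, DBP was lower, and PER1, PER2, CRY1, CRY2 and BHLHE41 did not pass. The 4 of 9 genes called stand beside 32.7% of all genes called, 3 higher beside 16.7% and 1 lower beside 16.0%, so that the number of calls is not a result about the clock genes. Their median log2 fold change was 0.12 and the median size of the change 0.12, against -0.03 and 0.11 over all genes. In 6 of the 9 genes the arrays of the groups did not overlap, beside 46.7% of all genes.

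**Figure D2:**
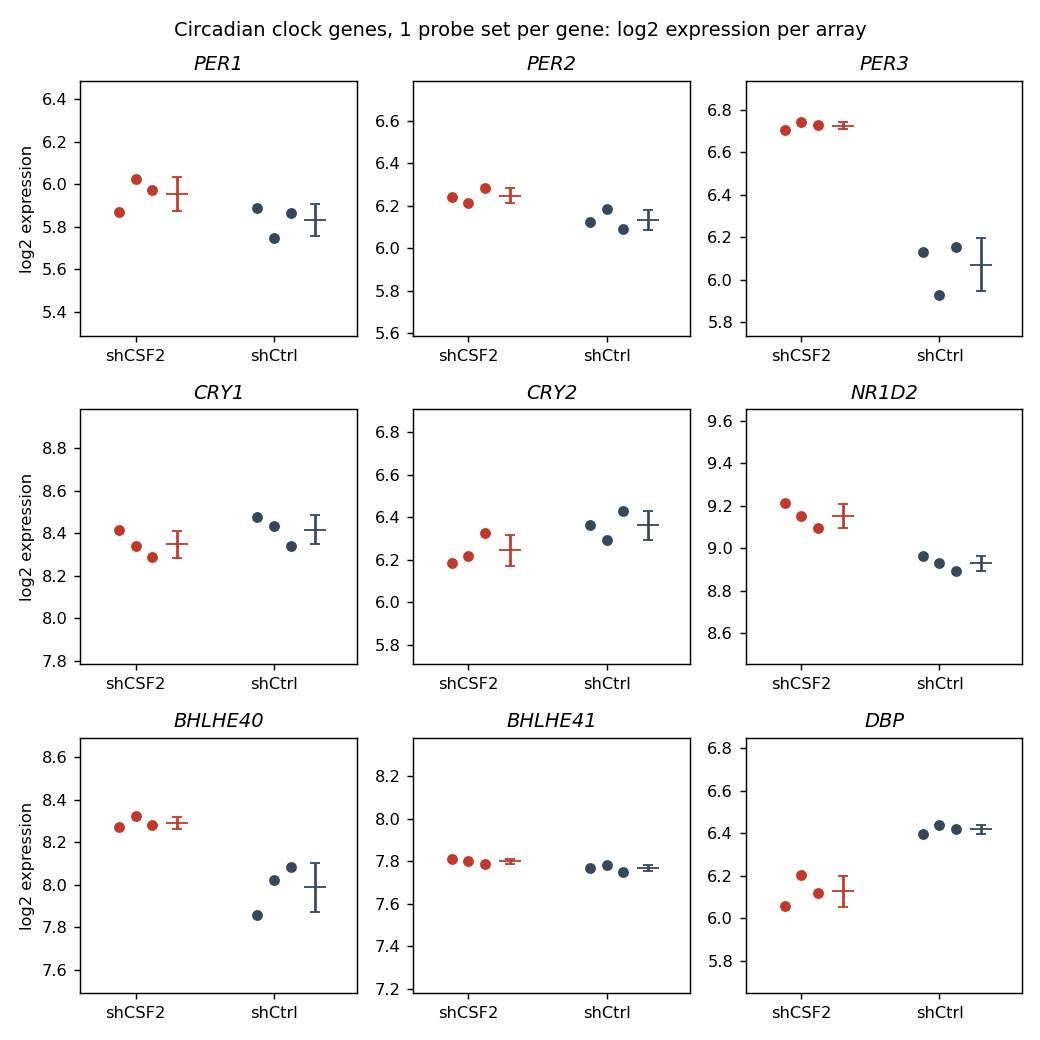
Log2 expression of the 9 measured clock genes, 1 probe set per gene, on each array (points), with mean and SD beside them (bar and whiskers, n = 3 per group). Each panel spans the same height of 1.2 log2 units at its own level. The groups are clearly apart for PER3, NR1D2, BHLHE40 and DBP, and lie on each other for CRY1.

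The period genes encode the repressors whose build-up closes the main loop. PER3, the least required of them for rhythm in mice, had log2 values of 6.71, 6.74 and 6.73 on the shCSF2 arrays, against 6.13, 5.93 and 6.16 on the shCtrl arrays. All shCSF2 arrays lay above all shCtrl arrays, and they spread less than the shCtrl arrays (SD 0.02 and 0.12, n = 3). The difference was 0.65 ± 0.06 on the log2 scale (SE), or 1.57-fold, with a limma adjusted p of 0.000382.

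Of the other 2 probe sets of PER3, 1 moved the same way and 1 the opposite way. When limma was fitted over all 49293 probe sets, 11 of the 24 clock probe sets passed, beside 29.1% of all probe sets. Of these, 8 were higher, beside 15.3%, and 3 lower, beside 13.8%, and the groups did not overlap in 15 of the 24, beside 43.8%. Both directions occurred within PER3. Probe set 11745947_a_at was also higher, at 4.95, 4.90 and 4.82 in shCSF2, against 4.53, 4.56 and 4.27 in shCtrl cells (0.44 ± 0.08, adjusted p = 0.00770). Probe set 11751159_a_at was lower, at 5.68, 5.49 and 5.81 in shCSF2, against 6.17, 5.94 and 6.05 in shCtrl cells (-0.39 ± 0.09, limma adjusted p = 0.0190). The log2 value of 11719045_a_at, which represents the gene, minus that of 11751159_a_at averaged 1.06 ± 0.17 in shCSF2 and 0.02 ± 0.07 in shCtrl arrays (SD, n = 3, exact two-sided permutation p = 0.1, the smallest possible). After adjustment over the 3 such contrasts computed, which were chosen once the values were seen, this was 0.15. With the 3 probe sets averaged, PER3 was higher by 0.23 (limma adjusted p = 0.00725), so its size depends on the probe set and its direction does too. The call of the lower probe set was lost without shCtrl replicate 1 (-0.33, limma adjusted p = 0.0613) and without shCtrl replicate 3 (-0.39, limma adjusted p = 0.0566).

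PER2, which with PER1 carries most of the repression in mice, was measured by 5 probe sets, and only 11758315_s_at passed. It read 6.40, 6.38 and 6.54 in shCSF2 cells, against 5.59, 5.45 and 5.64 in shCtrl cells. The groups were far apart, and the difference of 0.88 ± 0.07, or 1.84-fold, was the largest of the 24 probe sets (limma adjusted p = 0.000183). In the array maker's naming, the ending _s_at marks a probe set that can read transcripts of more than 1 gene. Probe set 11750155_a_at, which represents the gene, read 6.24, 6.22 and 6.28 in shCSF2, against 6.12, 6.18 and 6.09 in shCtrl cells. These groups also did not overlap, but the difference was 0.12 ± 0.04 and did not pass (limma adjusted p = 0.0670 in the fit over genes). The remaining probe sets were dim, with means between 2.34 and 4.30 in shCSF2 and between 2.38 and 4.25 in shCtrl cells, and gave differences of 0.05, -0.05 and -0.22 that did not pass. The lowest of these, at 11762382_x_at, passed without shCSF2 replicate 3 (-0.27, limma adjusted p = 0.0317). The difference between 11758315_s_at and 11750155_a_at averaged 0.19 ± 0.05 in shCSF2 and -0.57 ± 0.15 in shCtrl arrays (SD, n = 3). The exact two-sided permutation p was 0.1, the smallest possible, and 0.15 after adjustment over 3 contrasts. As 11758315_s_at was picked for its large difference between the same groups, this contrast is a description only. PER2 passed at 0.16 when its probe sets were averaged (limma adjusted p = 0.0207). It passed at 0.12 when genes with a mean under 5 were left out (limma adjusted p = 0.0304). Its most variable probe set gave 0.88 (limma adjusted p = 0.000225). That choice rests on the variance over all arrays, the difference between groups included, so this value is a description only.

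**Figure D3:**
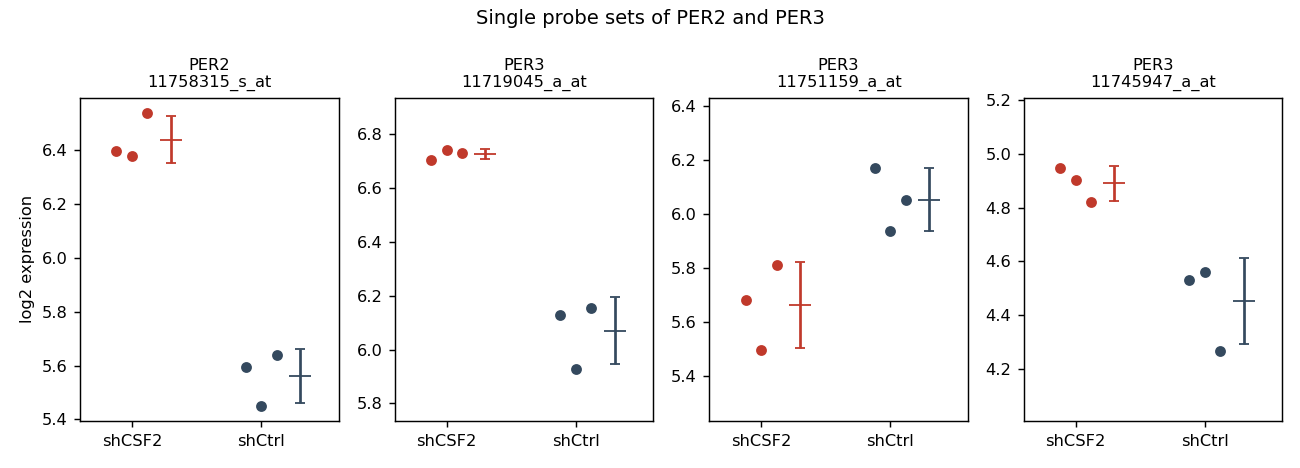
Log2 expression of PER2 probe set 11758315_s_at and of the 3 PER3 probe sets on each array (points), with mean and SD beside them (n = 3 per group). The shCSF2 arrays lie above the shCtrl arrays in 3 panels and below them for PER3 probe set 11751159_a_at.

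PER1, the period gene that responds at once to glucocorticoids and cAMP, did not pass. It read 5.87, 6.03 and 5.97 in shCSF2, against 5.89, 5.75 and 5.86 in shCtrl cells, and the groups overlapped. The difference of 0.12 ± 0.06 had a 95% interval of -0.01 to 0.26. Its other 2 probe sets were dim and gave -0.02 and 0.24. The difference of 0.24 belonged to 11760378_at, which passed at 0.37 without shCtrl replicate 1 (limma adjusted p = 0.00664).

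The cryptochromes are the other partners of the repressor complex, and both had differences below 0 that did not pass. CRY1 read 8.42, 8.34 and 8.29 in shCSF2, against 8.48, 8.43 and 8.34 in shCtrl cells, with overlapping groups and a difference of -0.07 (95% interval -0.19 to 0.05). CRY2 read 6.19, 6.22 and 6.33 in shCSF2, against 6.36, 6.29 and 6.43 in shCtrl cells, with a difference of -0.12 (95% interval -0.25 to 0.01). The other CRY2 probe set, 11719311_a_at, had no overlap between groups, averaging 4.70 in shCSF2 cells and 4.86 in shCtrl cells, and did not pass (limma adjusted p = 0.0765). CRY2 passed at the same difference among genes at or above the median expression (limma adjusted p = 0.0468), where fewer genes were tested. For both cryptochromes the interval leaves room for no change and for a modest fall.

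NR1D2, the gene of the haem-binding repressor REV-ERB beta, had 4 probe sets that agreed in direction. All 4 were higher in shCSF2 cells, with no overlap between groups in any of them. The probe set that represents the gene read 9.21, 9.15 and 9.10 in shCSF2, against 8.96, 8.93 and 8.89 in shCtrl cells. The difference was 0.22 ± 0.04, or 1.17-fold (limma adjusted p = 0.00689). The other 3 gave 0.23, 0.31 and 0.37, and the last of these was the dimmest, averaging 4.62 in shCSF2 cells and 4.26 in shCtrl cells. The dimmest, 11751940_a_at, and 11722088_s_at each kept their call in 2 of the 6 fits on 5 arrays. Over the other 4 the limma adjusted p of 11751940_a_at was at most 0.0715. For 11722088_s_at the highest limma adjusted p over all alternatives was 0.0753, reached with the replicate number as a block. For 11722088_s_at the fits on 5 arrays that lost the call were those without shCSF2 replicate 1 or 2 or shCtrl replicate 1 or 2. For 11751940_a_at they were those without shCSF2 replicate 1 or 2 or shCtrl replicate 1 or 3. The brighter 2 kept it in all 6. NR1D1, which encodes REV-ERB alpha, overlaps THRA at its tail on the opposite strand, and the probe set paired with both read 6.83, 6.97 and 6.82 in shCSF2, against 6.76, 6.71 and 6.69 in shCtrl cells. The groups did not overlap, but the difference of 0.15 ± 0.05 did not pass (limma adjusted p = 0.0658) and cannot be given to either gene.

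BHLHE40, also called DEC1, represses at E-boxes and is induced by serum, hypoxia and many other signals. It had 1 probe set, which read 8.27, 8.32 and 8.28 in shCSF2, against 7.86, 8.02 and 8.08 in shCtrl cells. The lowest shCSF2 array lay above the highest shCtrl array, and the difference was 0.30 ± 0.06, or 1.23-fold (limma adjusted p = 0.00803). Its paralogue BHLHE41, or DEC2, differed by 0.03, with 7.81, 7.80 and 7.79 in shCSF2 against 7.77, 7.78 and 7.75 in shCtrl cells. Although these groups did not overlap, the gap was small and the gene did not pass (95% interval -0.04 to 0.11). None of the 3 probe sets of BHLHE41 passed. The difference of BHLHE40 passed and that of BHLHE41 did not, but the difference between them was not tested.

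DBP, a D-box activator whose transcript swings widely over the day in many tissues, was the clock gene that fell. It read 6.06, 6.21 and 6.12 in shCSF2, against 6.40, 6.44 and 6.42 in shCtrl cells. All shCSF2 arrays lay below all shCtrl arrays, and the difference was -0.29 ± 0.05, or 1.22-fold lower (limma adjusted p = 0.00288). Its second probe set read 6.04, 5.98 and 5.87 in shCSF2, against 6.20, 6.24 and 6.22 in shCtrl cells, and fell by 0.26 (limma adjusted p = 0.00902). Both of its probe sets end in _s_at. So do the probe sets that represent BHLHE41 and, described below, GSK3B, SIRT1, NPAS2 and BTRC.

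**Figure D4:**
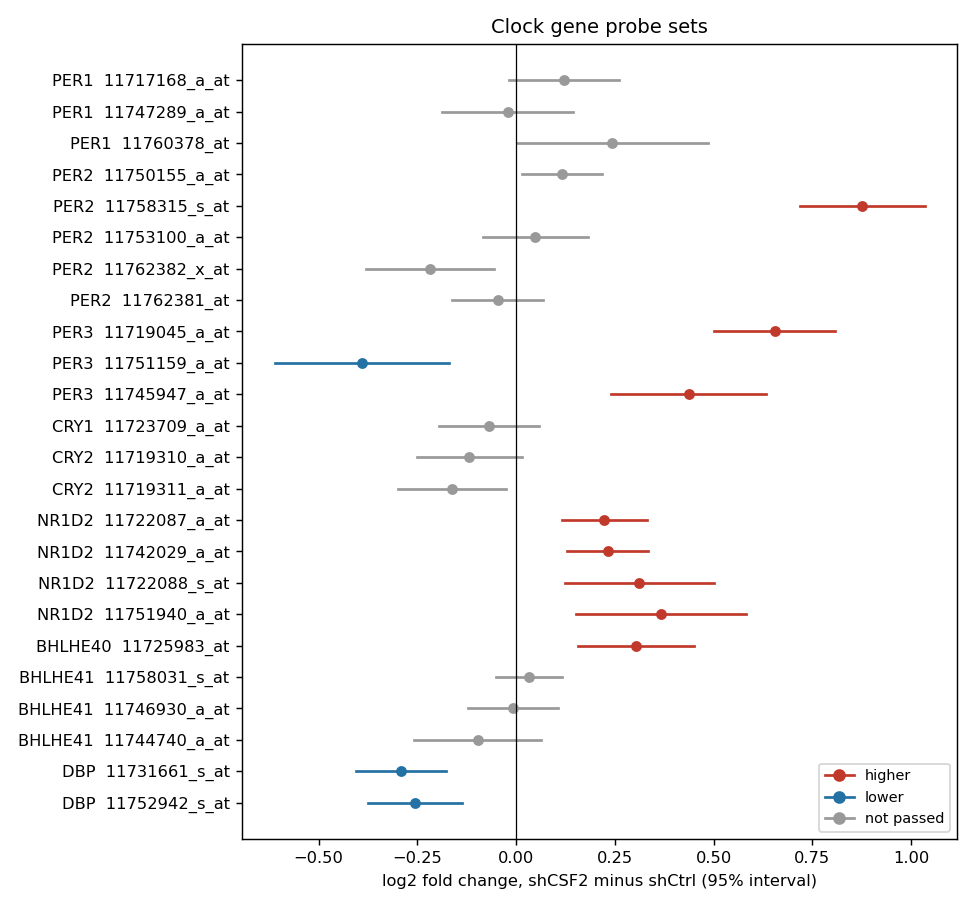
Log2 fold change, shCSF2 minus shCtrl, of the 24 clock probe sets, with 95% intervals from limma (n = 3 arrays per group). Red marks probe sets that passed as higher (8), blue those that passed as lower (3) and grey those that did not pass. The 4 probe sets of NR1D2 lie right of 0, the 2 of DBP lie left of it, and those of PER3 lie on both sides.

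The activators, the other loop members and the enzymes that act on PER and CRY were read beside the clock genes, at 1 probe set per gene. Of 18 measured, 6 rose, beside 16.7% of all genes, and 1 fell, beside 16.0%. Their median log2 fold change was 0.07, against -0.03 over all genes.

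Among the activators, CLOCK rose, with 6.26, 6.24 and 6.25 in shCSF2 cells, against 5.73, 5.72 and 5.65 in shCtrl cells. The arrays lay far apart, and the difference was 0.55 ± 0.04, or 1.46-fold (limma adjusted p = 0.000108). Its other probe set differed by 0.01 and did not pass, and with both averaged CLOCK was higher by 0.28. Its partner BMAL1 differed by 0.05 (95% interval -0.06 to 0.16), and 0 of its 3 probe sets passed. NPAS2, which can stand in for CLOCK, and BMAL2, a paralogue of BMAL1, differed by -0.09 and -0.11 and did not pass. BMAL2 passed without shCtrl replicate 3 (-0.14, limma adjusted p = 0.0441). At -0.11 it also passed when genes with a mean under 5 were left out (limma adjusted p = 0.0488). The same held among genes at or above the median expression (limma adjusted p = 0.0265). For NPAS2, 1 of 4 probe sets passed as higher (0.18), while the gene passed as lower after quantile normalisation again (-0.11, limma adjusted p = 0.0490) and among genes at or above the median expression (-0.09, limma adjusted p = 0.0351).

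Of the receptors that oppose the NR1D proteins at the BMAL1 element, RORA rose by 0.17 ± 0.04, with 7.47, 7.53 and 7.47 in shCSF2 cells, against 7.29, 7.31 and 7.37 in shCtrl cells (limma adjusted p = 0.0167). All 3 of its probe sets were higher, and the most variable gave 0.45. At gene level it no longer passed in 3 of the 6 fits on 5 arrays, those without shCSF2 replicate 2, shCtrl replicate 1 or shCtrl replicate 2, where the limma adjusted p lay between 0.0529 and 0.0591. RORB fell by 0.25, but it was below the array medians, at 4.47 in shCSF2 and 4.72 in shCtrl cells, and lost its call in 4 of those 6 fits, those without shCSF2 replicate 3 or without any 1 of the shCtrl arrays. Of the D-box factors, the repressor gene NFIL3 rose by 0.20 ± 0.04, with 8.62, 8.63 and 8.52 in shCSF2 against 8.38, 8.39 and 8.38 in shCtrl cells (limma adjusted p = 0.00941). The activator genes TEF and HLF, relatives of DBP, differed by 0.09 and -0.04 and did not pass. DBP and NFIL3, which bind the same element with opposite effects, differed in opposite directions.

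Among the enzymes, the kinase gene GSK3B rose by 0.28 ± 0.05 (limma adjusted p = 0.00325) by 1 of its 2 probe sets, and no longer passed with both averaged (0.10, limma adjusted p = 0.0722). The casein kinase gene CSNK1D, whose kinase marks PER proteins for degradation, and FBXW11 differed by -0.03 and -0.02 and did not pass. By its most variable probe set, CSNK1D was higher by 0.19 (limma adjusted p = 0.0210) and FBXW11 was lower, at -0.15 (limma adjusted p = 0.0483). That choice favours probe sets that differ between the groups, so both values are a description only. BTRC, which encodes the F-box protein that recognises phosphorylated PER, differed by 0.08 by the probe set used. It was higher in 2 of its 4 probe sets and by 0.27 with all averaged (limma adjusted p = 0.00265).

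Among the clock partners, TIPIN rose most, with 8.23, 8.21 and 8.26 in shCSF2 cells, against 7.67, 7.53 and 7.73 in shCtrl cells. The difference was 0.59 ± 0.06, or 1.51-fold (limma adjusted p = 0.000351), and all 3 probe sets passed as higher. Its protein is better known for stabilising replication forks together with that of TIMELESS, which differed by 0.01 and did not pass. SIRT1, a deacetylase gene, rose by 0.20 ± 0.04 (limma adjusted p = 0.00478), and 1 of its 2 probe sets passed. NONO differed by less than 0.01 by that probe set, and CIART, a repressor gene of the CLOCK complex, by 0.19, and neither passed. CIART passed without shCSF2 replicate 2 (0.25, limma adjusted p = 0.0270). It also passed when genes with a mean under 5 were left out (0.19, limma adjusted p = 0.0373). After cyclic loess normalisation it passed at 0.21 (limma adjusted p = 0.0479).

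**Figure D5:**
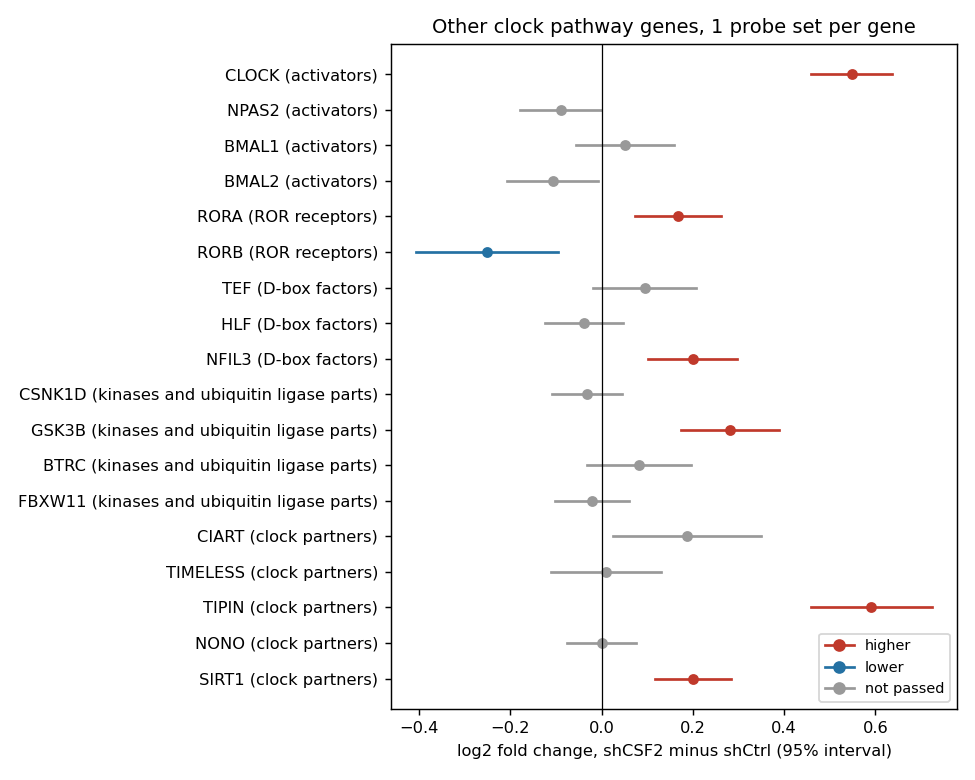
Log2 fold change, shCSF2 minus shCtrl, of the 18 measured companion genes of the clock, 1 probe set per gene, with 95% intervals from limma (n = 3 arrays per group). CLOCK and TIPIN lie furthest right, and RORB is the only gene marked as lower.

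The clock gene with the smallest p was PER3. The genes whose values over the 6 arrays were most like its representing probe set by Pearson correlation were THUMPD3 (r = 0.999), STX18 (r = 0.999) and DDX31 (r = 0.998). All 3 were higher in shCSF2 cells, by 0.30, 0.30 and 0.28 on the log2 scale, so these correlations hold the difference between groups that PER3 has too, and they are a description over 6 points.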

How the data were processed

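The deposited table holds log2 expression values made by the authors for each probe set on 3 shCSF2 and 3 shCtrl arrays of the PrimeView type. RMA, oligo and limma are named without versions or roles, per the submitters' processing notes. RMA compresses differences at low signal. Gene symbols came from the platform annotation and were checked against RefSeq gene identifiers, where 0 symbols changed. Of 49293 non-control probe sets, 44988 were paired with 1 symbol. The probe set with the highest mean represented each of 18132 genes. Genes, and separately all 49293 probe sets, were fitted in limma (version 3.58.1, with R 4.3.3) by lmFit and eBayes, with no block. Benjamini-Hochberg adjustment ran over the whole table at a threshold of 0.05. The fit was tested on simulated data, where it recovered 38% of 50 changes of 0.3 and 92% of 50 changes of 0.5 (log2). There 176 of 18132 genes were called, 14 of them falsely. Many more genes were called in these data, so the shares need not carry over. Genes that did not pass may still differ. Log2 fold changes are shCSF2 minus shCtrl, with moderated SE. Probe sets of 1 gene share their RNA and are not replicates. The number of arrays limits the precision.

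The clock genes, the companion lists and the rule for named genes (all members, every passing companion, the 2 most changed genes of each list of responsive genes and the 3 genes most like the clock gene with the smallest p) were chosen with earlier results of these data known. Companions that did not pass were added for contrast. Alternatives were dim filters, 3 further normalisations, array weights, robust estimation with a variance trend, the replicate number as a block, 2 other ways to combine probe sets, and leaving out each array. The most variable probe set was picked by its variance over all arrays, the difference between groups included, so its results are a description only. Figures were drawn with matplotlib 3.10.9.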

Additional observations from a re-analysis of the deposited data

How the results depend on the processing

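The counts of clock genes (3 higher, 1 lower) and clock probe sets (8 higher, 3 lower) stayed within 1.5 times under every alternative tried. Genes counted as higher were 3 or 4, and probe sets 6 to 8 higher and 2 to 4 lower. PER3, NR1D2, BHLHE40 and DBP passed in the same direction under all alternatives that kept them (the filter at the median expression drops DBP, PER1 and PER2, and the 1 lower gene there is CRY2), between 0.23 and 0.70 for PER3, 0.19 and 0.37 for NR1D2, 0.24 and 0.35 for BHLHE40, and -0.33 and -0.26 for DBP. No alternative represented PER3 by its lower probe set, 11751159_a_at (-0.39), so these fits do not test how its direction depends on the probe set. BHLHE40 has 1 probe set, so the ways to combine probe sets could not change it. Leaving out 1 array kept 3 genes higher and 1 lower in all 6 fits. Of 18 companions, the number lower was 1, against 2 after quantile normalisation again or above the median expression and 0 without shCSF2 replicate 3, shCtrl replicate 1 or shCtrl replicate 2. CSNK1D turned to 0.19 by its most variable probe set. With the replicate number as a block, 3 clock genes were higher and 1 lower, and 7 probe sets were higher and 4 lower. NR1D2 probe set 11722088_s_at lost its call (0.31, limma adjusted p = 0.0753) and PER2 probe set 11762382_x_at gained one (-0.22, limma adjusted p = 0.0222). Deviations of same-numbered arrays from their group means correlated at 0.03, 0.05 and 0.03, and those of the other pairs between -0.08 and 0.04. Such deviations cancel within each group by construction, so these values cannot settle whether the numbers pair the arrays. Dim probe sets limit what the arrays can show for RORB and for the remaining probe sets of PER2. The brighter PER2 probe sets 11750155_a_at and 11758315_s_at differed in size, at 0.12 and 0.88.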

Other observations

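Genes that respond to glucocorticoids or cAMP, signals that also reach PER1, moved in both directions. Of 7 measured, 2 rose, beside 16.7% of all genes, and 4 fell, beside 16.0%. Their median log2 fold change was -0.25, against -0.03 over all genes. The kinase gene SGK1 read 10.32, 10.38 and 10.37 in shCSF2, against 10.96, 11.01 and 11.01 in shCtrl cells, with a difference of -0.64 ± 0.04 (limma adjusted p = 5.90e-05). The glucocorticoid receptor cochaperone gene FKBP5 fell by 0.45 ± 0.03 (limma adjusted p = 0.000125). The 2 that rose, TSC22D3 and CREM, and the other 2 that fell, KLF9 and NR4A1, are named after their values were seen.

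Genes that respond to hypoxia, as BHLHE40 does, were also split. Of 5 measured, 3 rose, beside 16.7% of all genes, and 2 fell, beside 16.0%. NDRG1 read 9.45, 9.46 and 9.47 in shCSF2, against 8.95, 8.99 and 8.95 in shCtrl cells, and rose by 0.49 ± 0.03 (limma adjusted p = 9.93e-05). The peptide hormone gene ADM fell by 0.40 ± 0.03 (limma adjusted p = 0.000221).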
